A study of Mus musculus with 8 samples.

Results

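The genes described here are 10 components of the routes by which a cell detects foreign or misplaced nucleic acid, most of which lead to interferon. They are the RNA helicases Ddx58, Ifih1 and Dhx58, their adaptor Mavs, the Z-form nucleic acid sensor Zbp1 and the DNA sensing pair Mb21d1 and Tmem173. The others are the inflammasome sensor Aim2, the kinase Tbk1 and the transcription factor Irf3. All 10 were found by gene symbol in a deposited table of 31574 genes, and all 10 had values above the detection floor in all 8 libraries. In this pathway RNA helicases signal through the mitochondrial adaptor encoded by Mavs, and the DNA sensor encoded by Mb21d1 makes a cyclic dinucleotide that activates the endoplasmic reticulum protein encoded by Tmem173. Both branches meet at the kinase encoded by Tbk1, which activates Irf3 and with it the transcription of type I interferon. Ddx58, Ifih1, Dhx58 and Zbp1 are themselves known to be induced by interferon in many cell types, so the sensing and response arms are linked by a feedback loop.

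The libraries were made from c-kit+ acute myeloid leukaemia cells of C57BL/6 mouse bone marrow, and the study asked what loss of Ezh2, alone or together with Ezh1, does to these cells. Ezh1 and Ezh2 are the alternative catalytic subunits of Polycomb repressive complex 2, which silences genes by methylating histone H3. Each of 4 groups held 2 libraries: Ezh1-null tamoxifen (Ezh1-/- Ezh2-/-), Ezh1-null oil (Ezh1-/- with Ezh2 not deleted), Ezh1-present tamoxifen (Ezh1+/+ Ezh2-/-) and Ezh1-present oil (Ezh1+/+ with Ezh2 not deleted). The sample labels give the oil genotype as Ezh2+/+ and the series text as Ezh2 flox/flox. Tamoxifen in corn oil was injected into the peritoneum at 10 mg/kg/day for 5 doses, oil animals received corn oil, and cells were taken 7 days later. Every deleted library had tamoxifen and every undeleted one had oil, so the drug and the deletion cannot be told apart. Sample titles carry the word Moz, but the sources used here do not give the oncogene, the Cre driver, the age of the mice or whether the 2 libraries of a group come from separate animals or leukaemias. Each p therefore measures only the spread between these libraries, and Ezh1 genotype and the leukaemia a genotype came from cannot be told apart.

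Values are log2 normalized read counts centred on each gene's median over the 8 libraries, so 0 is that median and a level cannot be compared between genes. The SD within a group, taken gene by gene, had a median of 0.115 (Ezh1-null tamoxifen), 0.116 (Ezh1-null oil), 0.142 (Ezh1-present tamoxifen) and 0.125 (Ezh1-present oil). Ezh1 lay between -1.94 and -1.55 in the 4 Ezh1-null libraries and between 1.55 and 1.71 in the 4 Ezh1-present libraries. Ezh2 lay at -0.53 and -0.56 in Ezh1-null tamoxifen against -0.12 and -0.03 in Ezh1-null oil, and at 0.09 and 0.03 in Ezh1-present tamoxifen against 0.25 and 0.23 in Ezh1-present oil. The groups did not overlap, but neither difference passed the test (limma adjusted p = 0.0554 and 0.293), and the deleted exons cannot be seen in values given per whole gene. Ezh2 was also called lower with Ezh1 loss, with a change of -0.31 in oil (limma adjusted p = 0.0492) and -0.60 after tamoxifen (adjusted p = 0.0200). Both calls ended when only the groups compared were fitted. The oil call also ended with a replicate block, with a robust fit, after quantile normalization and when at least 1 library had to exceed the floor. With 1 library left out, the changes were -0.36 to -0.27 in oil and -0.63 to -0.57 after tamoxifen. The oil call ended whichever library was left out, and the call after tamoxifen ended without any 1 tamoxifen library. Kit, Cd34, Mpo, Hoxa9, Meis1, Elane and Ctsg, used as progenitor markers, were above the floor in all 8 libraries.

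The promoters of 3 members are shown: those of Ddx58 and Ifih1, the members whose windows hold a tandem motif known to be bound by interferon regulatory factors, and that of Mb21d1, for comparison, as a member that ran the other way in the values below. Each window is RefSeq sequence of GRCm38.p6, 300 bases long, with 250 bases before the start of the gene and 50 after it, on the minus strand, read 5′ to 3′, with the motif in capitals. The windows are chr4:40239776-40240075 for Ddx58, chr2:62646206-62646505 for Ifih1 and chr9:78443188-78443487 for Mb21d1, the last lying outside the span that the deposited table gives for the gene.
Ddx58: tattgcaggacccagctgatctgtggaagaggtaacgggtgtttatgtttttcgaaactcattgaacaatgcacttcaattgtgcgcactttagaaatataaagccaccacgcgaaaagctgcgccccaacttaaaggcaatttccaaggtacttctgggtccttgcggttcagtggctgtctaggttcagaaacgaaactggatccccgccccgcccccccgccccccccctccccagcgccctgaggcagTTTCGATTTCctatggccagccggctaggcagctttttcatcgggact
Ifih1: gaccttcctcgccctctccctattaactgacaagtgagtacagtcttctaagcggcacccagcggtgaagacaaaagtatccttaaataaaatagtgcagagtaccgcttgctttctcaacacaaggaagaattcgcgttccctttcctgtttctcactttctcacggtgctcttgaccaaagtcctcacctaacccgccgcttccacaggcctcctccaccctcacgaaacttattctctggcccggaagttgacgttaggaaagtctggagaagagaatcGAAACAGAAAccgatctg
Mb21d1: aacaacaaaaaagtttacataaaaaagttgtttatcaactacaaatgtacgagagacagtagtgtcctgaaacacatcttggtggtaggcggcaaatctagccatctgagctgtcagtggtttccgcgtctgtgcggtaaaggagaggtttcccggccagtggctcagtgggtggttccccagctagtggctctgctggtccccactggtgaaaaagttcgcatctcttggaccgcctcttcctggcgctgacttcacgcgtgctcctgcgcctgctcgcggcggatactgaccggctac
The motifs GAAANNGAAA, which the capitals mark, and TTCNNNGAA, known as the gamma-activated site, were searched on both strands. The first of these stood at bases 253 to 262 of the Ddx58 window, in the reverse orientation, and at bases 283 to 292 of the Ifih1 window. Of the 7 members with a window in the reference table, 2 held GAAANNGAAA, against 3.44% of 32851 windows of the same length. The windows of Mavs, Mb21d1, Aim2, Tbk1 and Irf3 did not hold GAAANNGAAA, which says nothing of whether a factor binds there, and there was no window for Dhx58, Zbp1 or Tmem173. The gamma-activated site was in 0 of 7 windows, against 8.30% of all windows.

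The members split into 3 kinds of pattern. Ddx58, Ifih1, Dhx58 and Zbp1 were highest in Ezh1-null tamoxifen cells and lowest in Ezh1-present oil cells, with ranges over the 8 libraries of 1.56 to 3.29 log2 units. Mb21d1, Tmem173, Aim2 and Tbk1 ran the other way by genotype: their highest group was Ezh1-present oil, and every Ezh1-present library lay above every Ezh1-null library of the same treatment, over ranges of 0.54 to 1.31. Such separation was common: it was found in 34.7% of all genes in oil and in 31.8% after tamoxifen. The share of genes with it in both treatments was not counted. Mavs and Irf3 had the narrowest ranges, 0.52 and 0.37, although by SD over the 8 libraries Tbk1 (0.169) varied less than Mavs (0.173).

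**Figure D1:**
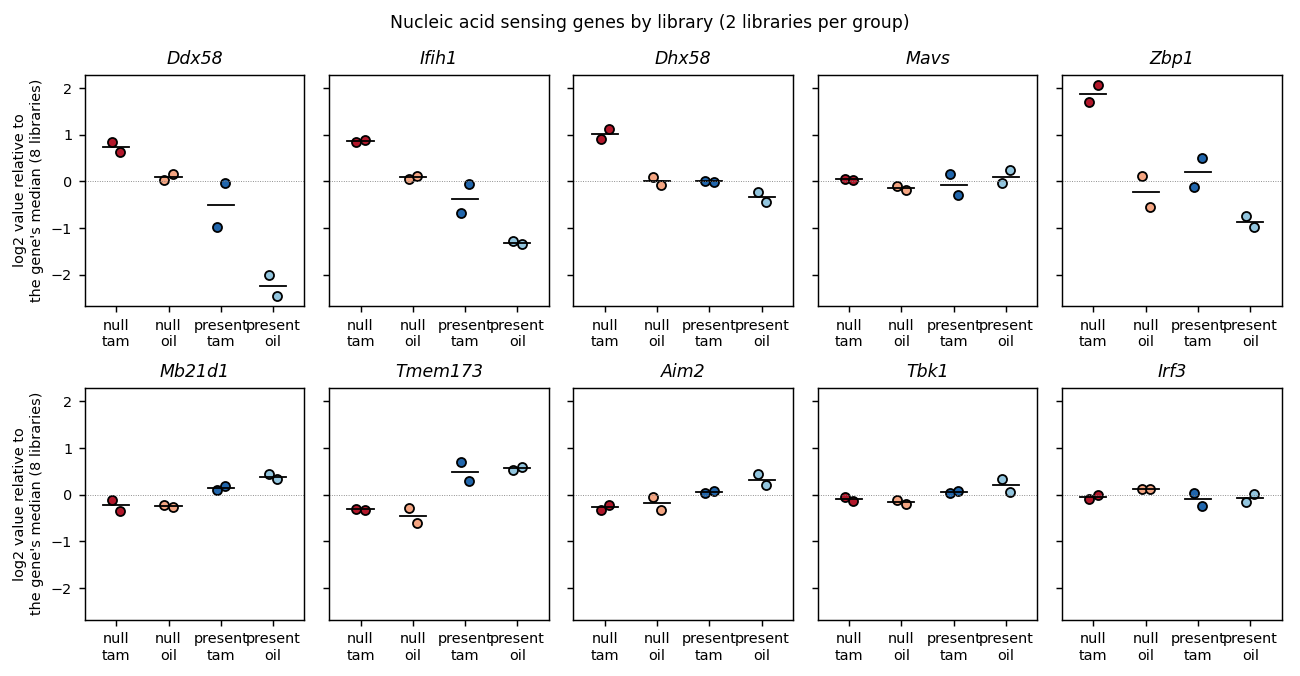
Each panel gives 1 gene, with its log2 value relative to its own median in each of the 8 libraries (vertical axis) by group (horizontal axis, 2 points a group, the bar is the group mean; null and present refer to Ezh1, tam is tamoxifen). Ddx58, Ifih1, Dhx58 and Zbp1 sit highest in Ezh1-null tamoxifen and lowest in Ezh1-present oil, whereas Mb21d1, Tmem173, Aim2 and Tbk1 have Ezh1-present oil as their highest group.

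Ddx58 (gene 230073, chromosome 4, 40203777 to 40239825, mm10) encodes RIG-I, which recognises RNA with triphosphate ends. It lay at 0.84 and 0.62 in Ezh1-null tamoxifen, 0.04 and 0.17 in Ezh1-null oil, -0.97 and -0.04 in Ezh1-present tamoxifen, and -2.01 and -2.45 in Ezh1-present oil. The 4 groups stood in that order with no overlap between neighbours, and the 2 Ezh1-present tamoxifen libraries were farther apart than those of any other group. Ifih1 (gene 71586, chromosome 2, 62595793 to 62646255), which encodes MDA5, a sensor of long double-stranded RNA, lay at 0.84 and 0.88 in Ezh1-null tamoxifen, 0.06 and 0.11 in Ezh1-null oil, -0.68 and -0.06 in Ezh1-present tamoxifen, and -1.28 and -1.34 in Ezh1-present oil. Its groups kept the same order, again with no overlap between neighbours and with the widest gap inside Ezh1-present tamoxifen. Over the 8 libraries, which the 2 genes share, their Pearson correlation was 0.98, given as a description.

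Dhx58 (gene 80861, chromosome 11, 100694884 to 100704271) encodes LGP2, a helicase that lacks the signalling domains of the other helicases and modulates them. It lay at 0.91 and 1.12 in Ezh1-null tamoxifen and at 0.09 and -0.07 in Ezh1-null oil, at 0.0044 and -0.0044 in Ezh1-present tamoxifen and at -0.22 and -0.44 in Ezh1-present oil. Ezh1-null tamoxifen stood apart above the rest, and Ezh1-null oil and Ezh1-present tamoxifen overlapped. Zbp1 (gene 58203, chromosome 2, 173206612 to 173218922), which encodes a sensor of Z-form RNA and DNA that can start necroptosis, lay at 1.69 and 2.06 in Ezh1-null tamoxifen and 0.11 and -0.54 in Ezh1-null oil, and at -0.11 and 0.50 in Ezh1-present tamoxifen and -0.74 and -0.98 in Ezh1-present oil. It too was far higher in both Ezh1-null tamoxifen libraries than in any other, and lowest in both Ezh1-present oil libraries. Dhx58 and Zbp1 correlated at 0.97 over the 8 libraries.

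Mb21d1 (gene 214763, chromosome 9, 78430518 to 78443147) encodes cGAS, the cytosolic DNA sensor that makes cyclic GMP-AMP. It lay at -0.10 and -0.34 in Ezh1-null tamoxifen, -0.22 and -0.27 in Ezh1-null oil, 0.10 and 0.20 in Ezh1-present tamoxifen, and 0.44 and 0.33 in Ezh1-present oil. Its span overlaps that of Gm8093 by 288 bases, and without a stated strand setting reads there cannot be told apart. Tmem173 (gene 72512, chromosome 18, 35733678 to 35740554) encodes STING, the receptor of that dinucleotide, and lay at -0.29 and -0.32 in Ezh1-null tamoxifen, -0.29 and -0.61 in Ezh1-null oil, 0.70 and 0.29 in Ezh1-present tamoxifen, and 0.54 and 0.60 in Ezh1-present oil. For both genes all 4 Ezh1-null libraries lay below all 4 Ezh1-present libraries, and the 2 Ezh1-null groups overlapped.

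Aim2 (gene 383619, chromosome 1, 173420604 to 173466036) encodes a cytosolic DNA sensor that signals to caspase-1 rather than to interferon. It lay at -0.32 and -0.21 in Ezh1-null tamoxifen, -0.05 and -0.33 in Ezh1-null oil, 0.05 and 0.09 in Ezh1-present tamoxifen, and 0.44 and 0.21 in Ezh1-present oil. Tbk1 (gene 56480, chromosome 10, 121546456 to 121586794), the kinase shared by both branches, lay at -0.05 and -0.13 in Ezh1-null tamoxifen, -0.10 and -0.20 in Ezh1-null oil, 0.05 and 0.09 in Ezh1-present tamoxifen, and 0.34 and 0.07 in Ezh1-present oil. In both genes all Ezh1-present libraries again lay above all Ezh1-null libraries, over a narrower range than in Tmem173. Mavs (gene 228607, chromosome 2, 131234063 to 131248024) lay at 0.05 and 0.04 in Ezh1-null tamoxifen, -0.11 and -0.18 in Ezh1-null oil, 0.15 and -0.29 in Ezh1-present tamoxifen, and -0.04 and 0.24 in Ezh1-present oil. All neighbouring groups of Mavs overlapped, and its whole span, 13962 bases, lies within that of Rnf24 in the table. Irf3 (gene 54131, chromosome 7, 44997648 to 45002848), the factor that Tbk1 activates, lay at -0.09 and -0.01 in Ezh1-null tamoxifen, 0.13 and 0.13 in Ezh1-null oil, 0.04 and -0.24 in Ezh1-present tamoxifen, and -0.15 and 0.01 in Ezh1-present oil. Its highest group was Ezh1-null oil, the other 3 groups overlapped, and 1065 bases of its span are shared with Bcl2l12.

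Deletion of Ezh2 with tamoxifen in Ezh1-null cells was accompanied by higher Zbp1 and Dhx58. Zbp1 was 4.27-fold higher in Ezh1-null tamoxifen than in Ezh1-null oil (log2 change 2.10 ± 0.32 SE, adjusted p = 0.0381), and Dhx58 was 2.00-fold higher (1.00 ± 0.13, adjusted p = 0.0273; limma, 2 libraries a group, Benjamini-Hochberg over 18051 genes). These were 2 of 10 members called, both higher, where 3.40% of all genes tested were called, 3.10% higher and 0.299% lower. Ifih1 had a log2 change of 0.77 ± 0.21 (adjusted p = 0.140, 95% interval 0.24 to 1.31) and Ddx58 one of 0.63 ± 0.34 (adjusted p = 0.417, interval -0.22 to 1.49), and for both genes the 2 groups did not overlap. The groups did not overlap in 6 of 10 members, against 49.2% of all genes. The other 6 members had changes of -0.18 (Irf3) to 0.19 (Mavs), with intervals that all spanned 0. The median change was 0.16 over the members and 0 over all genes. Of the 614 genes called, 91.2% were higher in tamoxifen cells, and after quantile normalization 74.8% of 457 were.

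The Dhx58 and Zbp1 calls were then tested with 1 library left out at a time, as are the calls of members and named pathway genes below. The calls of cell type markers were not tested in this way. Left-out libraries ended the Dhx58 call except where either Ezh1-present oil library was left out (adjusted p = 0.0467), with adjusted p of 0.0815 without Ezh1-null tamoxifen replicate 1, 0.118 without replicate 2, 0.0729 and 0.109 without Ezh1-null oil replicate 1 and 2, and 0.0607 when either Ezh1-present tamoxifen library was dropped. The Zbp1 call was lost whichever of the 8 libraries was left out (adjusted p of 0.0556 to 0.166), with log2 changes of 1.77 to 2.42. With the fit restricted to the 4 libraries compared, the adjusted p was 0.119 for Dhx58 and 0.149 for Zbp1, and with a replicate block 0.0632 and 0.0848. Without either Ezh1-present tamoxifen library, Ifih1 passed instead (adjusted p = 0.0341).

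With deletion of Ezh2 in Ezh1-present cells, 0 of 10 members were called, where 0.903% of all genes were called (limma; 0.637% higher and 0.266% lower), and 3 of 10 had an unadjusted p under 0.05, where 20.6% of all genes did. The largest change was that of Ddx58, 3.31-fold higher in Ezh1-present tamoxifen than in Ezh1-present oil (log2 change 1.73 ± 0.34, adjusted p = 0.0897, interval 0.87 to 2.58). Zbp1 had a log2 change of 1.05 ± 0.32 (adjusted p = 0.162), Ifih1 one of 0.94 ± 0.21 (adjusted p = 0.111) and Dhx58 one of 0.33 ± 0.13 (adjusted p = 0.246). Both tamoxifen libraries lay above both oil libraries in these 4 genes alone, so in 4 of 10 members, against 28.5% of all genes. The groups did not overlap in 6 of 10 members, against 53.8%. The other 6 members had changes from -0.26 (Aim2) to -0.02 (Irf3), and the median over the members was -0.05, against 0.01 over all genes. Without Ezh1-present tamoxifen replicate 1, Ddx58 and Ifih1 passed the test, at log2 changes of 2.19 (adjusted p = 0.0404) and 1.25 (adjusted p = 0.0287).

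The difference between the tamoxifen changes of Ezh1-null and Ezh1-present cells was tested as an interaction. It called 0 of 10 members (0.476% of all genes were called), and 1 member, Dhx58, had an unadjusted p under 0.05, where 14.9% of all genes did. As Ezh1-null minus Ezh1-present, Dhx58 had an estimated difference of 0.67 ± 0.19 log2 units (adjusted p = 0.216), Zbp1 one of 1.04 ± 0.45 (adjusted p = 0.361) and Ddx58 one of -1.09 ± 0.48 (adjusted p = 0.366). The 95% intervals were 0.20 to 1.14 for Dhx58, -0.09 to 2.17 for Zbp1 and -2.30 to 0.11 for Ddx58. By the fold changes of the authors' deposited table, Zbp1 and Dhx58 were at least 2-fold higher after tamoxifen in Ezh1-null cells. Of all 31574 genes in that table, 8.87% differed by that much in either direction. Unlike the other shares, this one counts 12530 genes with every library at the floor, which cannot differ, so it is lower than over the 18051 genes tested. Ddx58 and Zbp1 were at least 2-fold higher in Ezh1-present cells by the authors' deposited table, and 9.04% of the same 31574 genes differed by that much.

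**Figure D2:**
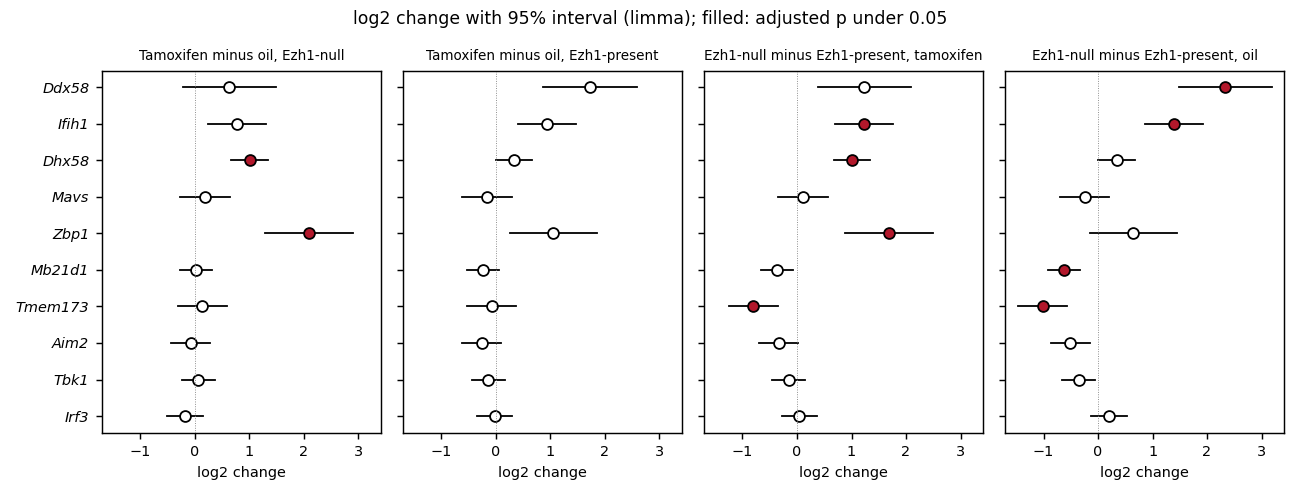
Log2 change (horizontal axis) with its 95% interval for each member (vertical axis) in 4 comparisons, filled where the limma adjusted p lay under 0.05. Zbp1 and Dhx58 are filled after tamoxifen in Ezh1-null cells, no member is filled after tamoxifen in Ezh1-present cells, and the 2 Ezh1 comparisons have filled points on both sides of 0.

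Loss of Ezh1 was compared within each treatment, and these comparisons share their libraries with the tamoxifen comparisons. In oil, Ddx58 was 5.03-fold higher in cells lacking Ezh1 than in cells with it (log2 change 2.33 ± 0.34, adjusted p = 0.00998) and Ifih1 was 2.63-fold higher (1.39 ± 0.21, adjusted p = 0.0110). Tmem173 fell by 1.02 ± 0.18 log2 units (adjusted p = 0.0163), which leaves it at 0.494 times the Ezh1-present level, and Mb21d1 fell by 0.63 ± 0.12 (adjusted p = 0.0182). These 4 of 10 members stand beside 24.9% of all genes called, 2 higher against 12.5% and 2 lower against 12.4%. Aim2 (log2 change -0.51 ± 0.14, adjusted p = 0.0527) and Tbk1 (-0.36 ± 0.12, adjusted p = 0.0877) lay below 0 with intervals of -0.87 to -0.16 and -0.66 to -0.05, and did not pass. Aim2 passed with a variance trend (adjusted p = 0.0468), when 4 or more libraries had to exceed the floor (0.0478) and when adjusted over genes with every library above the floor (0.0483). Libraries of the 2 oil groups were fully separated in 10 of 10 members, 5 higher and 5 lower, against 65.8% of all genes (31.0% higher and 34.7% lower), and 7 of 10 had an unadjusted p under 0.05, against 39.8%.

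The oil calls of Ddx58, Ifih1 and Tmem173 ended without Ezh1-null oil replicate 2 (adjusted p = 0.0547, 0.0582 and 0.0718) and without Ezh1-present oil replicate 2 (0.0520, 0.0562 and 0.0733), and those of Ifih1 and Tmem173 also without Ezh1-present oil replicate 1 (0.0571 and 0.0728). The Mb21d1 call ended without either library of either oil group (adjusted p = 0.0634 and 0.0836 without Ezh1-null oil replicate 1 and 2, 0.0890 and 0.0600 without Ezh1-present oil replicate 1 and 2), and at 0.0533 after quantile normalization.

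After tamoxifen, Zbp1 was 3.22-fold higher in cells lacking Ezh1 than in cells with it (log2 change 1.69 ± 0.32, adjusted p = 0.0339), Ifih1 was 2.35-fold higher (1.23 ± 0.21, adjusted p = 0.0285) and Dhx58 was 2.02-fold higher (1.01 ± 0.13, adjusted p = 0.0172). Tmem173 fell by 0.80 ± 0.18 log2 units (adjusted p = 0.0489). These 4 of 10 members, 3 higher and 1 lower, stand beside 12.2% of all genes called, 6.77% higher and 5.44% lower. Ddx58 had a log2 change of 1.24 ± 0.34 (adjusted p = 0.0731, interval 0.38 to 2.09) and Mb21d1 one of -0.37 ± 0.12 (adjusted p = 0.0961, interval -0.67 to -0.08). Mavs had a change of 0.11 (interval -0.34 to 0.56) and Irf3 one of 0.05 (interval -0.28 to 0.37). Groups did not overlap in 8 of 10 members, 4 higher and 4 lower, against 62.5% of all genes (30.7% higher and 31.8% lower), and 6 of 10 had an unadjusted p under 0.05, against 32.3%.

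Each of the 4 calls after tamoxifen ended in some fits. The Dhx58 call ended without any library of the 2 tamoxifen groups (adjusted p = 0.0590 and 0.0718 without Ezh1-null tamoxifen replicate 1 and 2, 0.0652 and 0.0626 without Ezh1-present tamoxifen replicate 1 and 2). The Zbp1 call ended without any 1 of these libraries or either Ezh1-present oil library (0.0638 to 0.127), the Ifih1 call without any Ezh1-null library (0.0571 to 0.114) or either Ezh1-present oil library (0.0599), and the Tmem173 call without any 1 of the 8 libraries (0.0598 to 0.167). Restricted to the 4 libraries compared, the adjusted p was 0.0768 for Dhx58, 0.104 for Zbp1, 0.123 for Ifih1 and 0.130 for Tmem173, and with a replicate block 0.0673 for Zbp1 and 0.0630 for Tmem173. The Tmem173 call also ended with a robust fit and when at least 1 library had to exceed the floor. Without Ezh1-present tamoxifen replicate 2, Ddx58 passed beside Ifih1, with a log2 change of 1.70.

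Markers of other blood cells moved with the groups, and in these bulk samples fewer cells of a type and less RNA per cell cannot be told apart. The median of 8 T and NK cell markers lay at 0.58 and 0.68 in Ezh1-null tamoxifen, -0.89 and -1.02 in Ezh1-null oil, 0.95 and 2.32 in Ezh1-present tamoxifen, and -2.13 and -2.48 in Ezh1-present oil. All 8 had a change above 0 after tamoxifen in both genotypes, against 48.3% (Ezh1-null) and 51.9% (Ezh1-present) of all genes. The median change of the 8 markers was 1.75 in Ezh1-null and 3.81 in Ezh1-present cells, although only Klrd1 in Ezh1-present cells passed the test. Cd3e was at the floor in both Ezh1-present oil libraries and 1 Ezh1-null oil library. The median of 6 neutrophil markers lay at 1.84 and 0.38 in Ezh1-null tamoxifen, 0.58 and 0.98 in Ezh1-null oil, -1.97 and -0.16 in Ezh1-present tamoxifen, and -2.83 and -2.89 in Ezh1-present oil. It was higher in every Ezh1-null library than in every Ezh1-present library, as Ddx58 and Ifih1 were, and 4 of 6 were called higher in Ezh1-null oil than in Ezh1-present oil. The median of 5 erythroid markers was 2.07 in Ezh1-present tamoxifen replicate 2 and -0.39 in replicate 1, the 2 libraries of 1 group between which Ddx58 and Ifih1 differed most. Of 5 B cell markers, 3 were called higher in Ezh1-null oil than in Ezh1-present oil and 2 higher in Ezh1-null tamoxifen than in Ezh1-present tamoxifen, and Pax5, called in both, was at the floor in both Ezh1-present oil libraries and in Ezh1-present tamoxifen replicate 2. The median of 5 megakaryocyte markers was 1.41 and 2.63 in Ezh1-present tamoxifen and lay between -1.55 and 0.22 in the other groups. The part of these cells in the member changes was not tested.

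Some markers of other myeloid cells and of progenitors also differed by genotype. Among the members, Tmem173 was called lower with Ezh1 loss in both treatments, Mb21d1 in oil only and Aim2 in neither. Of 9 monocyte and macrophage markers, 5 (Csf1r, Cd68, Ms4a6c and C1qa among them) were lower and 2 (Ly6c2 and Cx3cr1) higher in Ezh1-null oil than in Ezh1-present oil, with a median change of -0.38. After tamoxifen the counts were 4 lower and 2 higher, with a median of -0.68. Of 7 progenitor markers, 4 (Elane, Mpo, Ctsg and Kit) were higher and Meis1 lower in Ezh1-null cells in both treatments. Of 6 conventional dendritic cell markers, Itgax was lower in Ezh1-null oil than in Ezh1-present oil, and Itgax and Flt3 were lower in Ezh1-null tamoxifen than in Ezh1-present tamoxifen. After tamoxifen in Ezh1-null cells, where Zbp1 and Dhx58 were called, Itgax was lower with a change of -1.72 (limma adjusted p = 0.00700), Meis1 was lower with a change of -0.65 (adjusted p = 0.0450) and Ly6c2 was higher by 0.64 (adjusted p = 0.0482). In Ezh1-present cells Itgax had a change of 0.02, and its interaction was called (-1.74, adjusted p = 0.0410). Of 7 markers of plasmacytoid dendritic cells, which are potent makers of interferon, Siglech and Cd300c were lower in Ezh1-null tamoxifen than in Ezh1-present tamoxifen, and Klk1 and Cd300c lower and Ccr9 higher in Ezh1-null oil than in Ezh1-present oil. After tamoxifen the median of this list had a change of -0.14 in Ezh1-null cells, with Klk1, which was at the floor in both Ezh1-null oil libraries, called higher. In Ezh1-present cells the median change was 0.98, with 0 called and 2 at an unadjusted p under 0.05. There 6 of 7 lay above 0, against 51.9% of all genes. The part of these cells in the changes of Tmem173, Mb21d1 and Aim2, or in those of the helicases and Zbp1, was not tested.

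Around the members, other sensors and regulators of the pathway were read from lists. Counts in all lists below, and in the marker lists above, stand beside the shares of all genes called by limma. These were 3.40% (tamoxifen, Ezh1-null), 0.903% (tamoxifen, Ezh1-present), 24.9% (Ezh1 loss, oil) and 12.2% (Ezh1 loss, tamoxifen). An unadjusted p under 0.05 was found in 17.9%, 20.6%, 39.8% and 32.3% of all genes, in the same order. Of 24 endosomal and other sensors, 2 rose after tamoxifen in Ezh1-null cells and 1 in Ezh1-present cells, and none fell. Ddx60, a helicase reported to aid RIG-I, rose in both, by 1.66 ± 0.23 log2 units in Ezh1-null cells (adjusted p = 0.0298) and 2.15 ± 0.23 in Ezh1-present cells (adjusted p = 0.0357). With Ezh1 loss 3 of these 24 rose and 4 fell in each treatment. Of all genes, 12.5% were called higher and 12.4% lower in oil, and 6.77% and 5.44% after tamoxifen. Ddx60 was higher by 2.33 ± 0.23 in oil (adjusted p = 0.00409), and the tamoxifen groups differed by 1.84 ± 0.23 (adjusted p = 0.0155), while Tlr9, the endosomal DNA sensor, was lower in oil, with a change of -1.56 ± 0.16 (adjusted p = 0.00471) and Tlr7, the endosomal sensor of single-stranded RNA, was lower after tamoxifen, with a change of -2.12 ± 0.22 (adjusted p = 0.0116). Nlrx1, a mitochondrial relative of the NOD receptors, was higher by 0.65 ± 0.10 in oil (adjusted p = 0.0112). The Ddx60 calls after tamoxifen ended without any 1 Ezh1-null library (adjusted p up to 0.135 in Ezh1-null cells and 0.118 in Ezh1-present cells), and that in Ezh1-present cells also without Ezh1-present tamoxifen replicate 2 or either Ezh1-present oil library. The Tlr7 call ended without either Ezh1-present tamoxifen library (up to 0.0503), the Ddx60 call with Ezh1 loss after tamoxifen without either Ezh1-null tamoxifen library or Ezh1-present tamoxifen replicate 1 (up to 0.0760), and the Nlrx1 call without Ezh1-null oil replicate 2 or either Ezh1-present oil library (up to 0.0583). The medians of the list lay between -0.11 and -0.04 in the 4 comparisons.

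Of 18 AIM2-like receptor and inflammasome genes, 2 rose after tamoxifen in Ezh1-null cells and 1 in Ezh1-present cells, with medians of 0.57 in Ezh1-null and 0.01 in Ezh1-present cells. Mnda, an AIM2-like receptor, rose in both, by 2.67 ± 0.41 in Ezh1-null cells (adjusted p = 0.0399) and 3.36 ± 0.41 in Ezh1-present cells (adjusted p = 0.0448), but it lies in a family of near-identical copies between which reads may have been split. Both Mnda calls ended without any 1 Ezh1-null library or either Ezh1-present oil library (adjusted p up to 0.173 in Ezh1-null cells and 0.185 in Ezh1-present cells), and that in Ezh1-present cells also without Ezh1-present tamoxifen replicate 2. With Ezh1 loss 4 rose and 2 fell in oil, and 4 rose and 1 fell after tamoxifen. Casp4, the caspase of the noncanonical inflammasome, was higher in Ezh1-null oil by 1.13 ± 0.14 (adjusted p = 0.00703) and Nlrp3 by 1.18 ± 0.17 (adjusted p = 0.0101), while Casp1, the caspase downstream of Aim2, was lower, with a change of -0.60 ± 0.08 (adjusted p = 0.00761). The Nlrp3 call ended without Ezh1-present oil replicate 2 (adjusted p = 0.0501).

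Of 22 regulators of the RNA helicases and Mavs, 1 rose after tamoxifen in each genotype, and 7 rose in oil and 5 after tamoxifen with Ezh1 loss, with none lower in any of these 4 comparisons. Rnf125, a ubiquitin ligase that marks RIG-I for degradation, lay at 1.16 and 1.24 in Ezh1-null tamoxifen, 0.68 and 0.47 in Ezh1-null oil, -1.06 and -0.47 in Ezh1-present tamoxifen, and -3.18 and -3.07 in Ezh1-present oil. Its groups stood in the order seen for Ddx58, without overlap. It rose by 2.36 ± 0.21 after tamoxifen in Ezh1-present cells (adjusted p = 0.0276) and by 3.70 ± 0.21 with Ezh1 loss in oil (adjusted p = 0.00215). Usp18, which removes the ubiquitin-like protein ISG15 and restrains interferon signalling, rose by 2.75 ± 0.32 after tamoxifen in Ezh1-null cells (adjusted p = 0.0208). In Ezh1-null oil, Ywhah, a 14-3-3 protein that assists MDA5, was higher by 0.72 ± 0.09 (adjusted p = 0.00734) and the antiviral zinc finger protein Zc3hav1 by 0.62 ± 0.11 (adjusted p = 0.0154). The tamoxifen call of Rnf125 ended without any 1 Ezh1-null library or either Ezh1-present oil library (adjusted p up to 0.127), that of Usp18 without either Ezh1-null tamoxifen library or Ezh1-null oil replicate 2 (up to 0.107), and the oil call of Zc3hav1 without any 1 oil library (up to 0.0712).

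Of 25 adaptors and kinases next to Tbk1, 0 were called after tamoxifen in either genotype by limma, and 4 in Ezh1-null and 3 in Ezh1-present cells had an unadjusted p under 0.05. With Ezh1 loss 7 rose and 3 fell in oil, and 6 rose and 0 fell after tamoxifen. Ikbke, the kinase most closely related to Tbk1, lay at 0.69 and 0.67 in Ezh1-null tamoxifen, 1.06 and 1.57 in Ezh1-null oil, -0.95 and -0.67 in Ezh1-present tamoxifen, and -1.42 and -1.19 in Ezh1-present oil. Every Ezh1-null library lay above every Ezh1-present library. Ikbke was higher with Ezh1 loss by 2.62 ± 0.21 in oil (adjusted p = 0.00297) and by 1.49 ± 0.21 in the tamoxifen groups (adjusted p = 0.0201), whereas Tbk1 itself had changes of -0.36 in oil and -0.15 in the tamoxifen groups. Tbkbp1, which binds both kinases, was higher by 1.70 ± 0.17 in oil (adjusted p = 0.00420) and the adaptor Traf3 by 0.88 ± 0.12 (adjusted p = 0.00880), while Traf5 was lower, with a change of -1.25 ± 0.16 (adjusted p = 0.00740). The Ikbke call after tamoxifen ended without any 1 tamoxifen library (adjusted p up to 0.0915).

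Of 18 interferon regulatory and NF-kB factors, 2 rose after tamoxifen in Ezh1-null cells and 0 were called in Ezh1-present cells (7 had an unadjusted p under 0.05), with medians of -0.18 in Ezh1-null and -0.04 in Ezh1-present cells. In Ezh1-null cells, Irf9, a DNA-binding subunit of the factor that interferon activates, was higher by 0.73 ± 0.10 (adjusted p = 0.0286) and Irf7, which amplifies interferon transcription, by 2.71 ± 0.33 (adjusted p = 0.0220), whereas Irf3 had a change of -0.18 ± 0.13. With Ezh1 loss in oil 4 rose and 1 fell. Nfkb1 was higher by 1.51 ± 0.13 (adjusted p = 0.00338), Jun by 1.41 ± 0.16 (adjusted p = 0.00568) and Irf9 by 0.56 ± 0.10 (adjusted p = 0.0157). Irf5 was lower, with a change of -1.06 ± 0.12 (adjusted p = 0.00566), and after tamoxifen its change with Ezh1 loss was 0.01 ± 0.12 (adjusted p = 0.954). The tamoxifen calls of Irf9 and Irf7 ended without any 1 Ezh1-null library or either Ezh1-present oil library (adjusted p up to 0.135 and 0.113), and the oil call of Irf9 without any 1 oil library (up to 0.0708).

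Downstream of the members, 10 of 24 interferon-stimulated genes rose after tamoxifen in Ezh1-null cells and 4 of 24 in Ezh1-present cells. None was lower in either. A positive change was found in 23 of 24 in each, against 48.3% (Ezh1-null) and 51.9% (Ezh1-present) of all genes. With Ezh1 loss, 8 rose and Mx1 fell in oil, with a median of 0.53, and 10 rose and 0 fell after tamoxifen, with a median of 0.99. The median was 1.63 in Ezh1-null cells, against 0 over all genes, and 0.74 in Ezh1-present cells, against 0.01 over all genes. Rsad2, which encodes the antiviral enzyme viperin, rose by 3.33 ± 0.20 in Ezh1-null cells (adjusted p = 0.00563) and by 2.50 ± 0.20 in Ezh1-present cells (adjusted p = 0.0242). Ifi27l2a rose by 2.91 ± 0.19 in Ezh1-null cells (adjusted p = 0.00647) and by 1.90 ± 0.19 in Ezh1-present cells (adjusted p = 0.0319). Oas3, one of the synthetases that activate RNase L, rose by 1.98 ± 0.17 in Ezh1-null cells (adjusted p = 0.00884) and by 1.39 ± 0.17 in Ezh1-present cells (adjusted p = 0.0429). Rtp4 rose by 3.87 ± 0.40 in Ezh1-present cells (adjusted p = 0.0357) and had a change of 2.26 ± 0.40 in Ezh1-null cells (adjusted p = 0.0555). In Ezh1-null cells the Rsad2 and Ifi27l2a calls held whichever library was left out, and the Oas3 call ended without either Ezh1-null tamoxifen library (adjusted p up to 0.0644). In Ezh1-present cells the 4 calls ended without any 1 Ezh1-null library or either Ezh1-present oil library, and those of Oas3 and Rtp4 also without Ezh1-present tamoxifen replicate 2 (adjusted p up to 0.111 for Rsad2, 0.145 for Ifi27l2a, 0.172 for Oas3 and 0.162 for Rtp4). The interaction called 0 of the 24, and 12 of them had an unadjusted p under 0.05, against 14.9% of all genes.

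Of 16 receptor and signalling genes of the interferon response, Usp18 alone was called after tamoxifen in Ezh1-null cells and 0 in Ezh1-present cells, where 6 had an unadjusted p under 0.05. With Ezh1 loss 4 rose and 1 fell in oil, and 3 rose and 1 fell after tamoxifen. Socs1, an inhibitor of the receptor kinases, was higher by 0.83 ± 0.10 in oil (adjusted p = 0.00660) and the phosphatase gene Ptpn6 was lower, with a change of -0.79 ± 0.12 (adjusted p = 0.0115). The Ptpn6 call ended without any 1 oil library (adjusted p up to 0.0574).

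**Figure D3:**
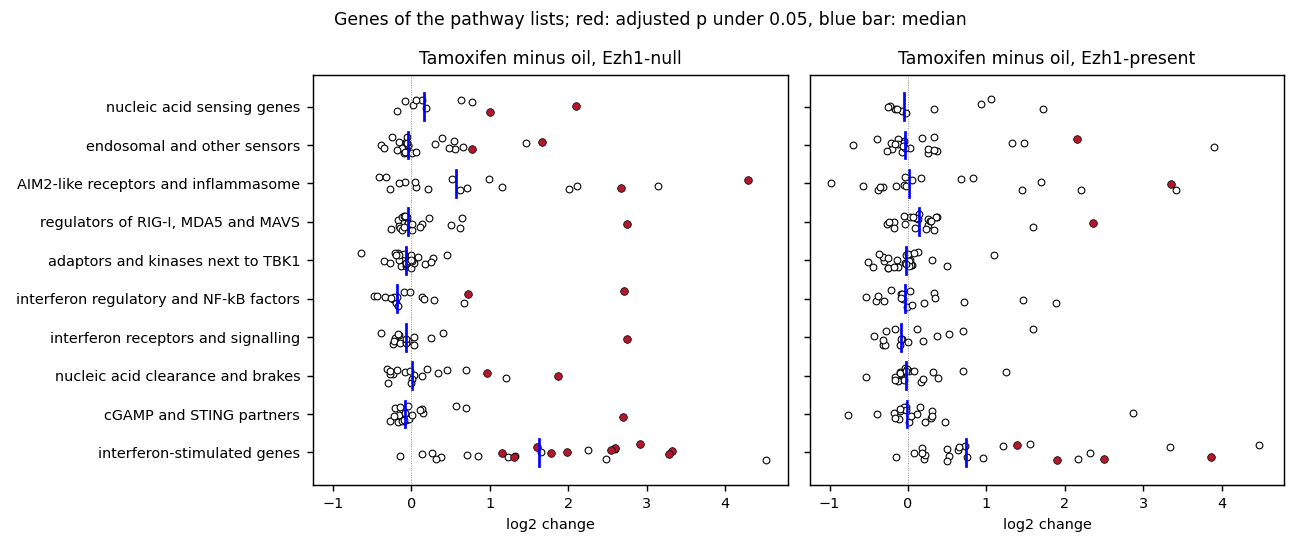
Log2 change after tamoxifen (horizontal axis) for each gene of the members and of 9 pathway lists (rows), in Ezh1-null cells (left) and Ezh1-present cells (right); red points have a limma adjusted p under 0.05 and the blue bar is the list median. In each panel 23 of 24 interferon-stimulated genes lie to the right of 0, with medians of 1.63 in Ezh1-null and 0.74 in Ezh1-present cells, and the adaptors and kinases next to Tbk1 have no red point. Of all genes, 48.3% in Ezh1-null and 51.9% in Ezh1-present cells had a change above 0.

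For the 5 members whose SD over the 8 libraries was at least 0.5, the genes with the most similar profile were sought among 5352 others with that spread, as a description over 8 libraries that share their groups. Closest to Ddx58 were Cpne2, Rps6kc1 and Hist1h1c (Pearson r of 0.998, 0.998 and 0.993), and closest to Ifih1 were Naaa, Ctsh and Alcam (0.997, 0.994 and 0.989). Dhx58 lay closest to Trim34a, Agrn and Thbs4 (0.979, 0.977 and 0.974) and Zbp1 to Thbs4, Usp18 and Irf7 (0.994, 0.989 and 0.983). Tmem173 lay closest to Plekho1, Sap30 and Efna4 (0.987, 0.984 and 0.983). High values were common: 385 of the 5352 genes exceeded 0.9 with Ddx58, 346 with Ifih1, 84 with Dhx58, 111 with Zbp1 and 270 with Tmem173.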

How the data were processed

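The deposited table of 31574 genes gave, per the file headers, normalized log2 values centred by the authors on each gene's median over the 8 libraries, after a percentile filter on raw values, with log2 fold changes of tamoxifen over oil. The largest row median found was 9.55e-07, and the deposited log2 fold changes differed from the differences of group means by at most 5.4e-07. Because the centring removed each gene's level and counts could not be recovered, depth is unknown and no count test was run. A relative measure, the most common step above the floor, is lower in deeper libraries. It ran from 2.13 to 2.48 in Ezh1-null libraries and from 1.49 to 2.02 in Ezh1-present libraries. By it every Ezh1-null library was shallower than every Ezh1-present one, and the part of depth in the Ezh1 comparisons was not tested. The build was mm10, per the submitters' processing notes. For the aligner, counter, strand setting and scaling the entry is: not given in the sources used here. RNA libraries were made with Illumina TruSeq reagents from 1 µg of total RNA, per the labels' protocols.

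A library was taken as at the floor where it was tied with another at the row minimum within 2e-06. Genes with at least 2 libraries above the floor, 18051, were fitted with limma 3.58.1 in R 4.3.3, with 4 group coefficients over all 8 libraries (4 residual and 1.24 prior degrees of freedom), two-sided moderated tests and Benjamini-Hochberg adjusted p under 0.05 as a call. The fit was tested on simulated data. Intervals are 95%. Promoter windows are from RefSeq, GRCm38.p6, searched in Python 3.11.15 with pandas 2.3.3 and numpy 2.4.6, and plots were drawn with matplotlib 3.10.9. Named genes are all members, up to 4 genes of each list with the smallest adjusted p among those called in any comparison, and the 3 genes most like each member with an SD of at least 0.5. Irf7 is named through the last part of this rule. The members, lists and rules were chosen with earlier results of these data known. A second, smaller table was not used here, and some items are not reported here.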

Additional observations from a re-analysis of the deposited data

How the results depend on the processing

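Over the alternatives (each library left out in turn, a replicate block, a variance trend, a robust fit, only the groups compared, quantile normalization, 2 other floor filters and adjustment over genes with every library above the floor), 704 of 790 member results kept their direction and side of the threshold, 63 lost a call, 8 gained one and 15 changed sign, none of these 15 called. Of 1132 results of other named genes, 862 kept both and 270 lost a call. Genes called after tamoxifen in Ezh1-null cells numbered 614, against 364 with the block and 240 with only the groups compared, and members called 2, against 0 and 0. In Ezh1-present cells 163 genes were called, against 23 with the block, 0 with only the groups compared and 33 when adjusted over genes with every library above the floor. For Ezh1 loss in oil 4493 genes were called, against 2531 with only the groups compared. For Ezh1 loss after tamoxifen 2204 genes and 4 members were called, against 1179 and 2 with the block and 27 and 0 with only the groups compared. The interaction called 86 genes, against 5 with the block, 8 with the trend, 37 after quantile normalization, 14 when 4 or more libraries had to exceed the floor and 6 when adjusted over genes with every library above the floor.

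With 1 library left out, genes called ranged from 176 to 469 (tamoxifen, Ezh1-null), 24 to 404 (tamoxifen, Ezh1-present), 1707 to 4004 (Ezh1 loss, oil), 337 to 1323 (Ezh1 loss, tamoxifen) and 17 to 98 (interaction). Members called ranged from 0 to 1, 0 to 2, 0 to 4, 0 to 2 and 0 to 0 in the same comparisons. Here the lone library of a group is assumed to vary like the others.

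Of the results that changed sign, those after tamoxifen in Ezh1-null cells ranged, with 1 library left out, from -0.021 to 0.30 (Tmem173), -0.10 to 0.14 (Mb21d1, which was -0.0055 without Ezh1-null oil replicate 2) and -0.22 to 0.062 (Aim2), and after quantile normalization were -0.14 for Tmem173 and -0.13 for Mb21d1. In Ezh1-present cells the ranges were -0.38 to 0.054 (Mavs), -0.28 to 0.13 (Tmem173) and -0.17 to 0.12 (Irf3, which was 0.06 without Ezh1-present oil replicate 2). For Ezh1 loss after tamoxifen they were -0.11 to 0.33 (Mavs) and -0.096 to 0.19 (Irf3), and in the interaction -0.48 to 0.15 (Ifih1). The interaction after quantile normalization was -0.059 for Tmem173 and -0.020 for Aim2. The cause was not tested.

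Whether libraries with the same replicate number are linked is not known. Over the genes fitted, their deviations correlated at -0.06 to 0.08 over the 6 pairs of groups. This cannot exclude a link that affects only some genes. The blocked fit ended the Dhx58 and Zbp1 calls after tamoxifen in Ezh1-null cells and the Zbp1 and Tmem173 calls of Ezh1 loss after tamoxifen, and no other member call. Each group held 2 libraries, the fit had 4 residual degrees of freedom, and depth is unknown.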

Other observations

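Of 23 interferon genes sought, 6 were in the table. Ifnb1, the interferon most directly switched on by Irf3, was above the floor in both Ezh1-null tamoxifen libraries alone, at 1.83 and 2.18 times the floor, and at the floor in the other 6 libraries. The most common step above the floor was 2.13 and 2.18 in those 2 libraries, so these values are about what 1 read is worth there, and no fold is given. Ifnb1 passed the filter on low values through that group alone, so no test of it is given. Ifna1 was above the floor in 1 library, Ifnab and Ifng in 2 each and Ifnk in 3, at up to 4.57 times the floor. Ifnz had no tied lowest libraries and ran from 1.0 to 9.26 times its lowest value.

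Of 19 genes that clear nucleic acid or hold sensing back, 2 rose after tamoxifen in Ezh1-null cells and 0 were called in Ezh1-present cells, where 2 had an unadjusted p under 0.05. Mov10, an RNA helicase that restrains retroelements, lay at -0.0031 and -0.0098 in Ezh1-null tamoxifen, -0.91 and -1.04 in Ezh1-null oil, 0.06 and 0.08 in Ezh1-present tamoxifen, and 0.16 and 0.0031 in Ezh1-present oil. Both Ezh1-null oil libraries stood apart below the other 6. It rose by 0.97 ± 0.10 after tamoxifen in Ezh1-null cells (limma adjusted p = 0.0136, and up to 0.0839 without either Ezh1-null tamoxifen library or Ezh1-null oil replicate 2), and with Ezh1 loss in oil it had a change of -1.06 ± 0.10 (adjusted p = 0.00373). Adarb1, an RNA-editing enzyme named after its values were seen, rose by 1.87 ± 0.16 after tamoxifen in Ezh1-null cells (adjusted p = 0.00889, and 0.0622 without Ezh1-null tamoxifen replicate 2). With Ezh1 loss in oil 3 of the 19 rose and 4 fell. The lysosomal RNase genes Rnaset2a and Rnaset2b, near-identical copies between which reads may have been split, were higher by 1.40 ± 0.09 and 1.43 ± 0.10 (adjusted p = 0.00243 for both).

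Of 20 genes that handle cyclic GMP-AMP or act with STING, 1 rose after tamoxifen in Ezh1-null cells and 0 were called in Ezh1-present cells, where 4 had an unadjusted p under 0.05. With Ezh1 loss in oil 7 rose and 2 fell, and after tamoxifen 3 rose and 2 fell. Enpp1, which degrades cyclic GMP-AMP outside cells, had a change of -1.70 ± 0.16 in oil (limma adjusted p = 0.00379) and -0.90 ± 0.16 after tamoxifen (adjusted p = 0.0309, and up to 0.128 without any 1 tamoxifen library or either Ezh1-present oil library). Rnf26, a ubiquitin ligase of STING, was higher by 1.07 ± 0.11 in oil (adjusted p = 0.00480). Ttll6, a polyglutamylase reported to modify cGAS, had a change of 2.69 ± 0.42 after tamoxifen in Ezh1-null cells (adjusted p = 0.0401, and up to 0.170 without any 1 library other than Ezh1-null oil replicate 2) and of -5.27 ± 0.42 with Ezh1 loss in oil (adjusted p = 0.00296).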
